A study of Homo sapiens with 8 samples.

Results

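Accessible chromatin was examined at 9 genes of the NRF2 pathway, the main transcriptional defence of cells against oxidants. The members were the peaks that overlapped fixed windows of build hg19 around NFE2L2, KEAP1, GCLC, GCLM, SLC7A11, TXNRD1, NQO1, HMOX1 and AKR1B10. The windows were 35 to 160 kb long and are defined by position. They were chosen with earlier results of these data known. Across the 8 peak lists 201 peaks fell in these windows, of 308814 peaks on chromosomes 1 to 22 and X. Peaks of all lists that shared at least 1 bp were merged, which gave 41 member regions among 80588 regions in all.

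The data came from ATAC-seq, in which a transposase cuts open DNA and the cut sites are sequenced. The cells were HSC-3 and KOSC-2, established lines from oral squamous cell carcinoma, which the labels call radioresistant and radiosensitive. The 4 groups were HSC-3 at 8 Gy, HSC-3 at 0 Gy, KOSC-2 at 8 Gy and KOSC-2 at 0 Gy, with 2 libraries each, from cells frozen 24 hours after irradiation or its omission. All cells grew in the same serum-supplemented medium, no genotype or drug is given, and each radiation class is a single line, so line and radiosensitivity cannot be told apart. The labels do not say whether both libraries of a group were grown apart. The tests therefore measure the spread between these libraries, which may be technical.

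NFE2L2 encodes NRF2, a transcription factor that KEAP1 binds and marks for degradation in unstressed cells. Oxidants and electrophiles modify KEAP1, NRF2 then accumulates, pairs with small MAF proteins and binds antioxidant response elements. Its targets make glutathione (GCLC, GCLM, SLC7A11), reduce thioredoxin (TXNRD1) and remove quinones, haem and reactive carbonyls (NQO1, HMOX1, AKR1B10). Ionizing radiation produces reactive oxygen species in cells, and activating lesions of this pathway are known in squamous carcinomas.

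Promoters that hold the letters of the element are shown first, because the element is the DNA that NRF2 binds. RefSeq promoters (build GRCh38.p14, 250 bases before to 50 after a start) matched 6 of the 9 genes, with 9 promoters. HMOX1, SLC7A11 and AKR1B10 had no entry in the table used. The core of the element was searched on both strands as TGACNNNGC. It was found in 4 of the 9 promoters, of GCLM, KEAP1 and TXNRD1, against 13.3% of the 35116 promoters of this length. Capitals mark the matches.
GCLM, chr1:93909381-93909680, minus strand: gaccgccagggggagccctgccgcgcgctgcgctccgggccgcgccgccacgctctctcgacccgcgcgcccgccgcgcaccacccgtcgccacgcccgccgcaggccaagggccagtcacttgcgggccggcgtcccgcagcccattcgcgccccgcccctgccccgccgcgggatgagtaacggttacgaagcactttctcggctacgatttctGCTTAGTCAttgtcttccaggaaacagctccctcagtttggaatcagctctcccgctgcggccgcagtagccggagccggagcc
KEAP1, chr19:10502722-10503021, minus strand: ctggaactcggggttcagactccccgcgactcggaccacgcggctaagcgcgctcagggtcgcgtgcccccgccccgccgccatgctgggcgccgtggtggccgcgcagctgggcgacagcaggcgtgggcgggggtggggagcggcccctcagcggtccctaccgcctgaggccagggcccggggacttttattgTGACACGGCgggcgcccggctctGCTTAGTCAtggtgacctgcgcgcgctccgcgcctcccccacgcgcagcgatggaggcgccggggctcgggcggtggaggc
TXNRD1, chr12:104215529-104215828, plus strand: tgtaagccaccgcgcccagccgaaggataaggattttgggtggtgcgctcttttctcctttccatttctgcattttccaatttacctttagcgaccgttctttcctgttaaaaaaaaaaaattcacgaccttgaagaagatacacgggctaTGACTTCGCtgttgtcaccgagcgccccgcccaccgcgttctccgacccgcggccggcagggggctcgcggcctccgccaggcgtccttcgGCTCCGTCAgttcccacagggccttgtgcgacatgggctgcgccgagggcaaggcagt
TXNRD1, chr12:104286782-104287081, plus strand: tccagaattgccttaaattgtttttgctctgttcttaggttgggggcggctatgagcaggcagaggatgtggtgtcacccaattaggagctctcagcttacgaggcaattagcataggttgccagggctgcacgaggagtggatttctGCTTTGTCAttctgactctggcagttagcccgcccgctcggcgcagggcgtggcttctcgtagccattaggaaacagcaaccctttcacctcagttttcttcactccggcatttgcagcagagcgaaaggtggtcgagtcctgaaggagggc
The GCLM promoter and 1 of the 2 KEAP1 promoters shared the same 9 letters, GCTTAGTCA as printed, at bases 217 to 225 and 220 to 228. These read TGACTAAGC on the other strand. This KEAP1 promoter held a further match at bases 197 to 205. In TXNRD1, one promoter had matches at bases 152 to 160 and 243 to 251, and the other a single match at bases 149 to 157. The AP-1 core TGANTCA, searched on both strands, was in 0 of the 9 promoters against 7.71% of all, so no match of the element overlapped one. The NFE2L2, GCLC and NQO1 promoters and the other KEAP1 promoter (chr19:10503307-10503606) had no match of the element in these 300 bases. No sequence outside them was searched. The 9 promoters held 12 to 41 CpG dinucleotides with a median of 35.0, against a median of 14 over all promoters. These sequences belong to another build than the peaks, so no peak was placed on them and a match is a description of letters only.

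Lists differed in length and quality. The HSC-3 lists held 22504, 43089, 41926 and 23490 peaks (both 8 Gy libraries, then both 0 Gy libraries) and the KOSC-2 lists 51693, 42407, 38234 and 45471. Among regions open in every library, the median summit pileup (reads stacked at a peak's highest base) stood 21.9 to 67.3 times as high as the lowest background of the same list. It was lowest in replicate 1 of HSC-3 at 8 Gy, replicate 1 of KOSC-2 at 0 Gy and replicate 2 of HSC-3 at 0 Gy (21.9, 25.7 and 34.7), and the shortest lists, one at each dose, are the HSC-3 libraries among these 3. Fewer open copies of a region and a shallower library cannot be told apart in a list. Markers of squamous epithelium and the other genes of the pathway were not analysed here, since no gene positions of hg19 were used.

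Most of the 9 loci had at least 1 region open in every library. Of the 41 member regions, 11 (26.8%) were called in all 8 libraries, against 15.9% of all regions, and 9 (22%) in 1 library, against 31.9%. The 11 lay in 7 windows: 1 each for NFE2L2, KEAP1 and NQO1, and 2 each for GCLC, GCLM, SLC7A11 and TXNRD1. The HMOX1 and AKR1B10 windows had none. Windows around other genes were not counted, so 7 of 9 windows has no background. Nor were the shares of regions set against regions near other genes. The 11 had a median width of 1126.0 bp, against 952 bp over all regions called in all 8 libraries, and a median mean percentile of 76.0, against 76.1. A percentile is the place of a peak by −log10 p within its own list. Summit pileups, recovered from the authors' fold and p, were 10 to 101 reads over the 88 calls of these 11 regions (median 41), and 6 to 61 reads (median 21.0) over the 101 calls of the other 30. Strongest summits of a region differed between libraries by 57 to 1195 bp (median 173 bp).

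**Figure D1:**
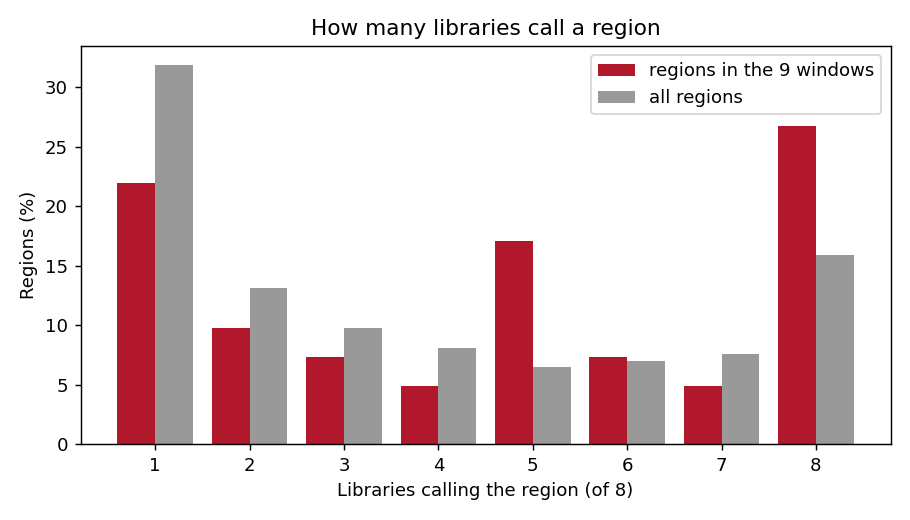
Percent of regions (y) by the number of libraries that call them (x, 1 to 8), for the 41 regions of the 9 windows (red) and all 80588 regions (grey). Regions called in all 8 libraries make up 26.8% of the red bars and 15.9% of the grey bars.

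**Figure D2:**
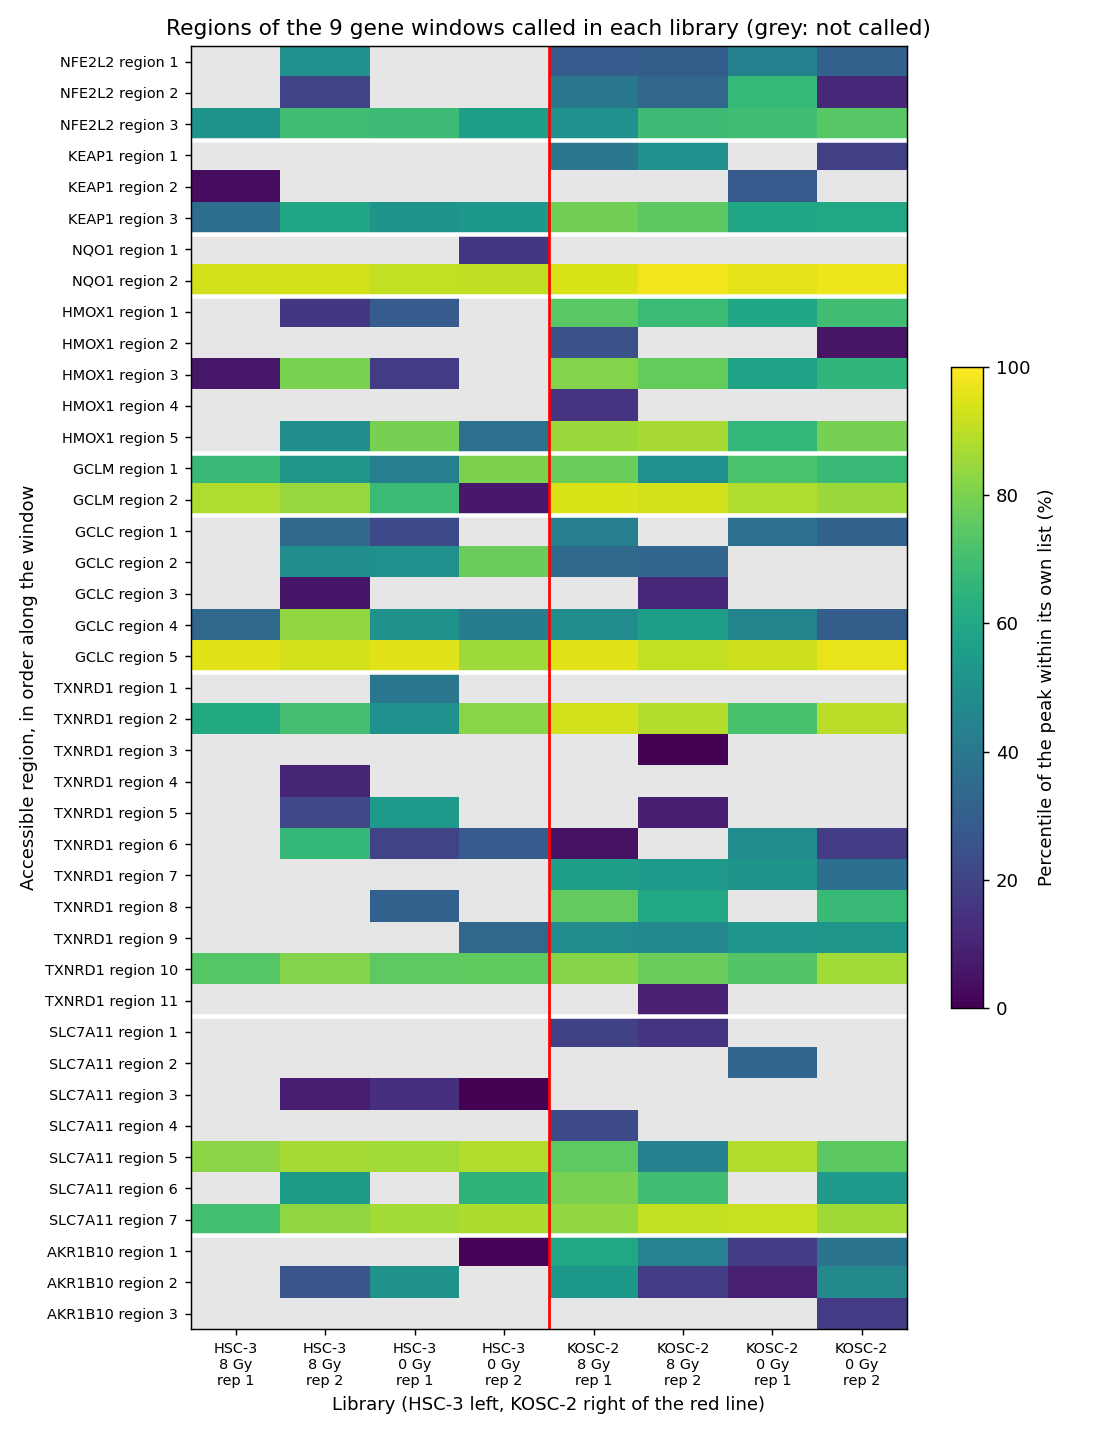
The 41 regions (rows, in order along each window) in the 8 libraries (columns, HSC-3 left), coloured by the percentile of the peak within its own list and grey where no peak was called. NQO1 region 2 and GCLC region 5 are bright in every column, and the AKR1B10 rows are mostly grey in HSC-3.

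Both regulators had 1 region open in every library. The NFE2L2 window (chromosome 2, 178080 to 178145 kb) held 3 regions. Region 3, at 178128122 to 178130207, was open in all 8 libraries and at 2086 bp was at least as wide as 99.5% of regions called in all 8. It held 2 peaks in 5 libraries and 1 in the other 3. Its percentiles in HSC-3 were 51.9 and 69.5 at 8 Gy and 68.7 and 55.7 at 0 Gy, and in KOSC-2 50.5 and 68.5 at 8 Gy and 69.3 and 74.2 at 0 Gy. The strongest summit lay between 178129456 and 178129538 in 6 libraries, and at 178128558 and 178128343 in replicate 1 of KOSC-2 at 8 Gy and replicate 2 of KOSC-2 at 0 Gy. Regions 1 and 2, centred 21.9 and 12.2 kb from region 3 on the lower side, were each called in 1 of 4 HSC-3 libraries, the 8 Gy replicate 2, and in 4 of 4 KOSC-2 libraries. Their summits held 12 to 30 reads.

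KEAP1, the adaptor through which NRF2 is degraded, had 3 regions in its window (chromosome 19, 10585 to 10625 kb). Region 3, at 10612875 to 10614000, was called in all 8 libraries with summits within 57 bp of each other, the narrowest spread of the 11. Its summit pileups were 21, 22, 23 and 15 reads in HSC-3 and 48, 40, 33 and 30 reads in KOSC-2 (both 8 Gy libraries, then both 0 Gy libraries). Pileups are not scaled to depth, so they give the reads behind a call and not a difference. Region 1 was called in 0 of 4 HSC-3 and 3 of 4 KOSC-2 libraries, and region 2 in 1 of 4 libraries of each line.

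The glutathione genes had regions open in every library of both lines. GCLC, the catalytic subunit of glutamate-cysteine ligase, had 5 regions (chromosome 6, 53350 to 53425 kb), and 2 of them, 3.20 kb apart, were called in all 8 libraries. Region 5, at 53412537 to 53413253, was among the strongest members. It had percentiles of 95.4, 93.3, 95.7 and 85.3 in HSC-3 and 95.6, 90.7, 92.2 and 96.7 in KOSC-2, in the same order of libraries, and pileups of 35 to 101 reads. Region 4, at 53409273 to 53410125, ranged from the 29.5th to the 83.7th percentile. GCLM, the modifier subunit, had 2 regions (chromosome 1, 94340 to 94390 kb) 30.4 kb apart, both called in all 8 libraries. Its region 2, at 94374274 to 94375487, had percentiles of 68.0 to 94.3 in 7 libraries and 6.97 in replicate 2 of HSC-3 at 0 Gy, where its summit held 10 reads.

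SLC7A11, the cystine transporter subunit that supplies cysteine for glutathione, had 7 regions (chromosome 4, 139075 to 139180 kb). Regions 5 and 7, at 139120541 to 139121108 and 139162654 to 139163898, were called in all 8 libraries and lay 42.5 kb apart. Region 7 had percentiles of 69.8, 83.5, 86.2 and 87.8 in HSC-3 and 83.6, 90.7, 91.6 and 85.7 in KOSC-2. Region 5 was narrow for a region open in all 8, at 568 bp, as wide as or wider than only 7.71% of them, and had percentiles of 82.5 to 88.3 in HSC-3 and 44.0 to 88.3 in KOSC-2. Region 3 was called in 3 of 4 HSC-3 and 0 of 4 KOSC-2 libraries, with 6 to 10 reads at its summit, which is close to the smallest pileup called in those lists (5 and 6 reads). It was the only member region called in 3 or more HSC-3 libraries and no KOSC-2 library.

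TXNRD1, the cytosolic thioredoxin reductase, had the most regions, 11 in the longest window (chromosome 12, 104595 to 104755 kb). Regions 2 and 10, 66.8 kb apart, were called in all 8 libraries. Region 10, at 104679801 to 104681123, held the percentiles 73.7, 81.4, 75.2 and 75.7 in HSC-3 and 81.7, 77.6, 73.1 and 86.0 in KOSC-2. Region 2, at 104613086 to 104614313, had percentiles of 50.0 to 82.4 in HSC-3 and 71.1 to 93.2 in KOSC-2. Between them, regions 7, 8 and 9 were called in 0, 1 and 1 HSC-3 libraries and in 4, 3 and 4 KOSC-2 libraries. Regions 5 and 6 were called in 2 and 3 HSC-3 libraries and in 1 and 3 KOSC-2 libraries.

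NQO1, a quinone reductase and a classical NRF2 target, had the strongest member region. Region 2 of its window (chromosome 16, 69730 to 69775 kb), at 69760163 to 69761098, had percentiles of 93.3, 93.4, 90.7 and 90.5 in HSC-3 and 94.5, 97.9, 95.9 and 97.5 in KOSC-2. Its authors' fold enrichment was 10.0 to 14.8 and its summits lay within 65 bp. The only other region of that window was called in 1 HSC-3 library.

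HMOX1, the inducible haem oxygenase, had 5 regions (chromosome 22, 35765 to 35800 kb) and none called in all 8 libraries. Regions 1, 3 and 5 were called in 2, 3 and 3 of 4 HSC-3 libraries and in 4 of 4 KOSC-2 libraries each. Region 5, the strongest of the window, at 35795729 to 35796462, had no call in the 8 Gy replicate 1 of HSC-3. Its percentiles were 49.4 at 8 Gy and 79.4 and 37.7 at 0 Gy in the other HSC-3 libraries, and 84.9 and 87.1 at 8 Gy and 66.4 and 79.5 at 0 Gy in KOSC-2. Region 3, at 35776710 to 35777490, had percentiles of 6.37 and 79.9 at 8 Gy and 17.8 at 0 Gy in HSC-3, without a call in the 0 Gy library replicate 2, and 81.6, 76.4, 57.8 and 65.8 in KOSC-2. Percentiles from lists of different length do not compare the lines. With every list cut to its strongest 22504 peaks, region 3 stood at 6.37 and 61.6 in the HSC-3 8 Gy libraries with no call at 0 Gy, and at 57.6, 55.5, 28.3 and 30.9 in KOSC-2, so that 1 HSC-3 library was above all 4 KOSC-2 libraries. Regions 2 and 4 were called in 0 of 4 HSC-3 libraries and in 2 and 1 KOSC-2 libraries. In the gene table of GRCh38.p14 the neighbours of HMOX1 are TOM1 and MCM5, and no region was assigned to one gene of a window.

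AKR1B10, an aldo-keto reductase that clears reactive carbonyls, had 3 regions in the window with the lowest coverage per length over the 8 libraries (chromosome 7, 134200 to 134240 kb; 1.46% of bases). On average, 0.647% ± 0.436 of its bases lay in peaks in HSC-3 and 2.27% ± 0.632 in KOSC-2 (SD, n = 4 each). Region 1, at 134200569 to 134201117, was called in 1 of 4 HSC-3 libraries, near the bottom of that list at the 0.934th percentile with 7 reads. In KOSC-2 it was called in 4 of 4 libraries, at percentiles of 59.5 and 44.3 at 8 Gy and 18.3 and 38.5 at 0 Gy. Region 2, at 134232137 to 134232694, was called in 2 of 4 HSC-3 libraries, at percentiles of 26.4 at 8 Gy and 51.3 at 0 Gy. It counts as the strongest of the window only narrowly, by the mean percentile over the libraries that call a region (34.2, against 32.3 for region 1). In KOSC-2 region 2 was called in 4 of 4 libraries, at 53.3 and 18.1 at 8 Gy and 8.99 and 46.9 at 0 Gy. The HSC-3 8 Gy library replicate 1 had 0 peaks in this window, and with a smallest called pileup of 8 reads a weaker region was not detectable there.

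**Figure D3:**
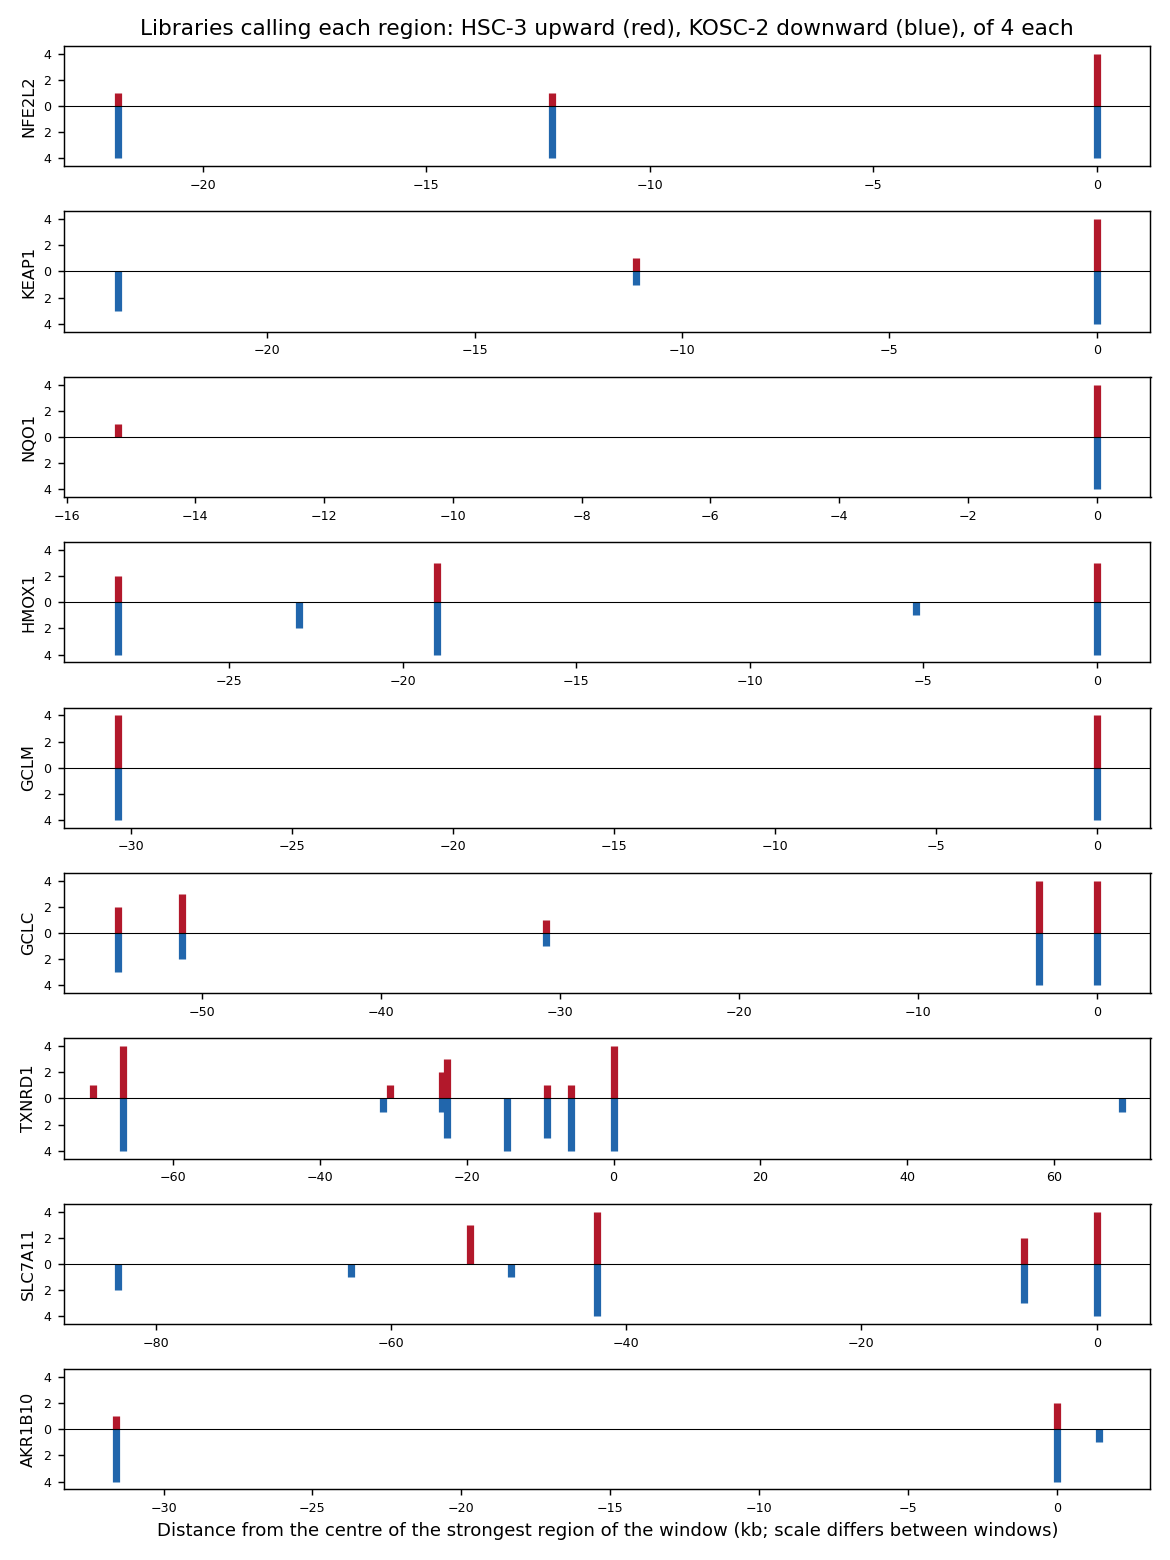
Each region by its distance in kb from the centre of the strongest region of its window (x) and the number of libraries calling it (y, of 4), HSC-3 upward in red and KOSC-2 downward in blue. TXNRD1 regions 14.5 to 5.75 kb below the strongest region have long blue and short or no red bars.

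Between the lines, most of what varied was called more often in KOSC-2. Each library called 13, 25, 22 and 19 of the 41 regions in HSC-3 and 30, 29, 24 and 27 in KOSC-2, an average of 19.8 ± 5.12 in HSC-3 and 27.5 ± 2.65 in KOSC-2 (SD, n = 4 each). The groups overlapped, since 1 HSC-3 library called more than 1 KOSC-2 library did. More KOSC-2 than HSC-3 libraries called 21 member regions (51.2%, against 54.3% of all regions), and more HSC-3 libraries called 6 (14.6%, against 22%). These shares were near those of all regions and are no result about the 9 genes.

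A single member region separated the lines fully. TXNRD1 region 7, at 104665607 to 104666398, was called in 0 of 4 HSC-3 and 4 of 4 KOSC-2 libraries, where its percentiles were 55.6 and 53.6 at 8 Gy and 51.6 and 36.4 at 0 Gy. Its summits lay within 12 bp of each other and held 19 to 29 reads. This pattern held for 2.07% of all regions, and for 6.10% of the 27383 regions open throughout at least 1 line. Among the 20 member regions of that kind it was 1. The reverse pattern was found in 0 member regions, against 0.300% of all regions and 0.884% of those called throughout at least 1 line. The smallest exact two-sided permutation p for a single region, 0.0286 for 4 against 4 libraries, becomes 1 after Benjamini-Hochberg adjustment over all regions. Allowing 1 HSC-3 call gave 5 of 41 member regions called in 4 of 4 KOSC-2 libraries, against 4.49% of all regions. Among regions open throughout at least 1 line, this was 5 of 20, against 13.2%. These were NFE2L2 regions 1 and 2, TXNRD1 regions 7 and 9 and AKR1B10 region 1, a set chosen after its values were seen. None of the 5 met this rule with lists of equal length, where they were called in 0 or 1 HSC-3 and 1 or 2 KOSC-2 libraries. The mirrored rule, 4 HSC-3 calls and at most 1 in KOSC-2, gave 0, against 0.655% of all regions.

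Which region was called only in KOSC-2 changed with lists of equal length, while the count stayed at 1. It was 1 of 28 member regions then, against 1.68% of all regions. With every list cut to its strongest 22504 peaks, TXNRD1 region 7 was called in 0 HSC-3 and 2 KOSC-2 libraries. HMOX1 region 1, at 35767499 to 35768327, was then called in 0 of 4 HSC-3 and 4 of 4 KOSC-2 libraries, at percentiles of 41.5, 40.1, 29.6 and 38.0 within the shortened KOSC-2 lists. GCLC region 2 was then called in 3 HSC-3 and 0 KOSC-2 libraries. The count of member regions called only in KOSC-2 was 3 without replicate 2 of HSC-3 at 8 Gy (3.23% of all regions met the rule then), 3 without replicate 2 of HSC-3 at 0 Gy (2.23%) and 2 without replicate 1 of KOSC-2 at 0 Gy (5.55%). It was 3 without the 2 shortest lists (2.37% of all regions) and 4 without the 3 libraries of lowest enrichment (6.12%).

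As lists differ in length, each window was also measured by the bases that peaks covered in it, per Mb covered by the same list. The same was done for 34877 bins of 50 kb across the genome that hold a peak, and p-values were adjusted over windows and bins together. On this scale 1 window lay wholly higher in HSC-3 and 1 wholly lower, against 5.36% and 5.79% of bins. Of the 19348 bins in which all 4 libraries of at least 1 line had a peak, 9.65% lay wholly higher in HSC-3 and 10.4% wholly lower. With 1 of 9 in each direction, the share of windows was near that of bins. No window passed the adjusted threshold of 0.05, and none could. The smallest exact permutation p, 0.0286, was shared by the 11.1% of bins without overlap of the lines and adjusted to 0.256. Values below are given for both 8 Gy libraries, then both 0 Gy libraries of a line.

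GCLC was the window with all HSC-3 libraries above KOSC-2. It had 104, 105, 102 and 141 bp per Mb in HSC-3 and 73.4, 80, 87.1 and 65.4 bp per Mb in KOSC-2. All 4 HSC-3 values were above all 4 KOSC-2 values. The mean was 113 ± 18.8 in HSC-3 and 76.5 ± 9.27 in KOSC-2 (SD, n = 4 each), a difference of 36.6 (exact two-sided permutation p = 0.0286, the smallest possible, adjusted p = 0.256). Means at 8 Gy were 104 in HSC-3 and 76.7 in KOSC-2, and at 0 Gy 122 in HSC-3 and 76.2 in KOSC-2. Lists of equal length gave a difference of 62.9, and leaving out the 2 shortest lists gave 27.3. In bases not scaled to the list it turned to -62.2 bp, with 2.45% ± 0.766 of the window covered in HSC-3 and 2.53% ± 0.314 in KOSC-2 (SD, n = 4 each).

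HMOX1 was the window with all HSC-3 libraries below KOSC-2, with 36.9, 64.8, 59.6 and 33.9 bp per Mb against 89.5, 77.7, 65.5 and 96.1 bp per Mb in KOSC-2. The highest HSC-3 library was just below the lowest KOSC-2 library. The mean was 48.8 ± 15.7 in HSC-3 and 82.2 ± 13.5 in KOSC-2 (SD, n = 4 each), a difference of -33.4 (exact two-sided permutation p = 0.0286, adjusted p = 0.256). Means at 8 Gy were 50.9 in HSC-3 and 83.6 in KOSC-2, and at 0 Gy 46.8 in HSC-3 and 80.8 in KOSC-2. Its direction was the same in all 14 other settings and subsets of libraries, with adjusted exact permutation p of 0.215 to 0.549. The 2 lowest HSC-3 values were those of the 2 shortest lists, and without them the difference was -20.0 (exact permutation p = 0.133). The part of the 2 shortest lists in the result beyond this was not tested.

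The AKR1B10 window had 0, 16.1, 16.4 and 28.5 bp per Mb in HSC-3 and 34.4, 34.2, 28.4 and 47.4 bp per Mb in KOSC-2. The groups touched, at 28.5 in replicate 2 of HSC-3 at 0 Gy and 28.4 in replicate 1 of KOSC-2 at 0 Gy. The difference of -20.8 had an exact two-sided permutation p of 0.0571 (adjusted 0.357). It kept its direction in all 14 other settings, but was -0.984 with lists of equal length, in which 1 HSC-3 and 1 KOSC-2 library kept a peak. Without either of the libraries that touched, the lines did not overlap, which follows from leaving out a value that touched and is no evidence of a line difference. KEAP1 had 61.1, 17.8, 29.0 and 31.8 bp per Mb in HSC-3 and 49.8, 55.3, 40.7 and 44.0 in KOSC-2. The HSC-3 8 Gy library replicate 1 was above all KOSC-2 libraries and the other 3 HSC-3 libraries below them. The difference was -12.5 (exact permutation p = 0.229, adjusted 0.635). It was -21.2 without that library, where the lines did not overlap (exact permutation p = 0.0286, adjusted 0.258). That library was singled out by its value, so the lack of overlap and this smallest p follow from leaving it out. They are no evidence of a line difference.

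In the other 5 windows the lines overlapped widely. Differences were 20.9 bp per Mb for NQO1, 21.0 for SLC7A11, 11 for NFE2L2, 6.11 for GCLM and -12.6 for TXNRD1, with exact two-sided permutation p of 0.171 to 0.686 and adjusted p of 0.532 to 1. The sign turned for NFE2L2, GCLM and SLC7A11 in 5 of 14 other settings each and for NQO1 in 1. In NQO1 and SLC7A11 replicate 2 of HSC-3 at 0 Gy, a short list, was the highest value, at 86.9 and 198 bp per Mb.

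**Figure D4:**
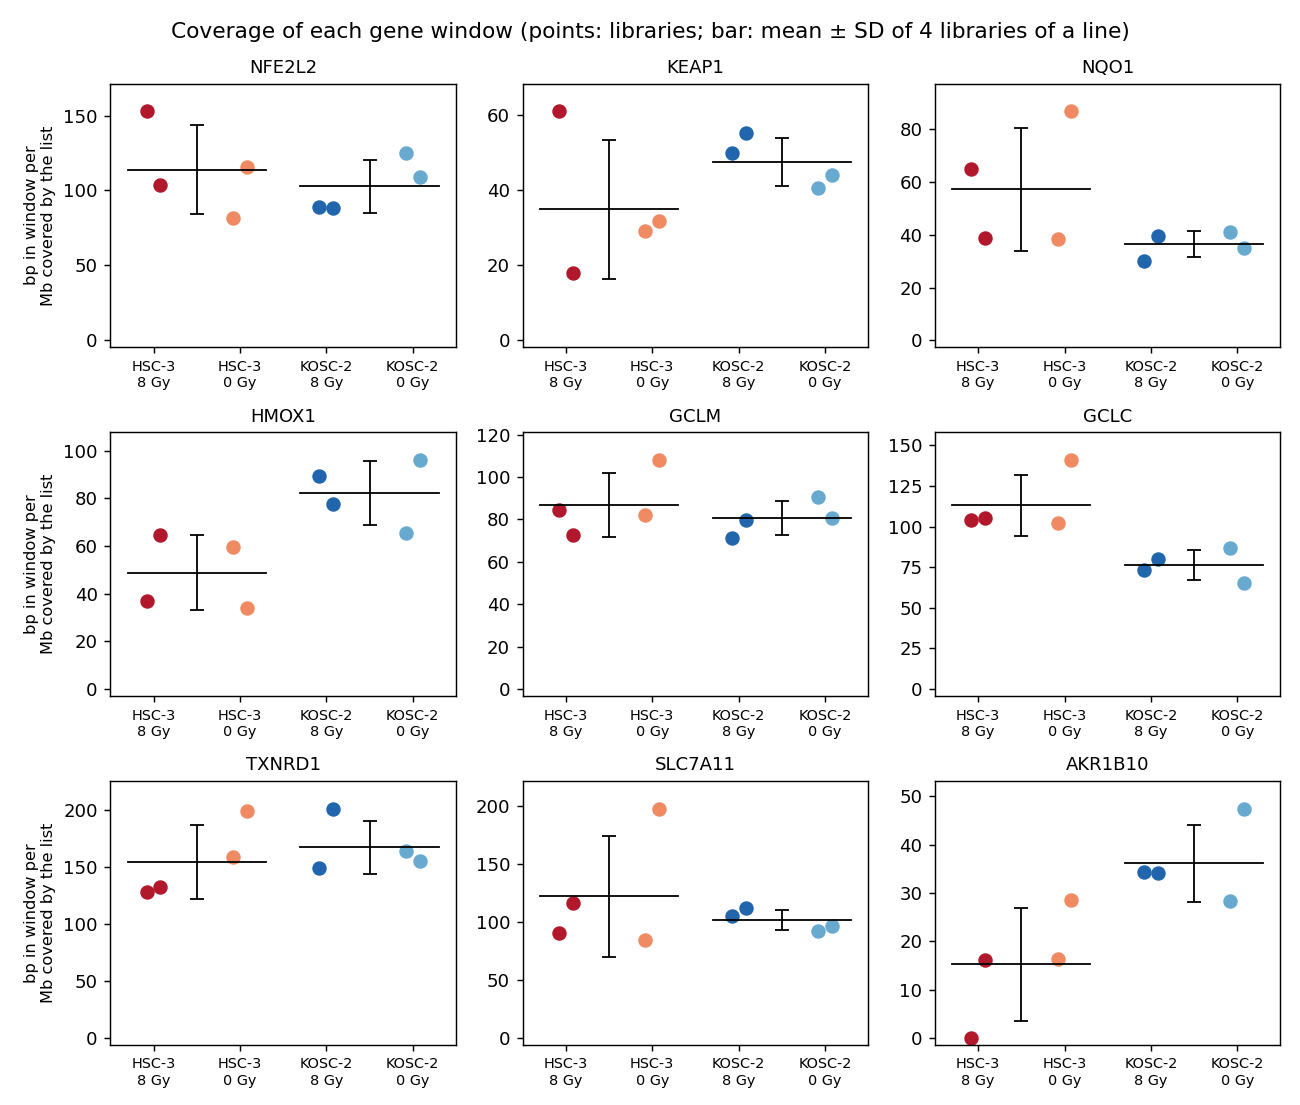
Bases covered by peaks in each window per Mb covered by the list (y) by group (x), 1 point per library, with the mean and SD of the 4 libraries of a line in black. GCLC lies at 102 to 141 in HSC-3 and 65.4 to 87.1 in KOSC-2, HMOX1 at 33.9 to 64.8 in HSC-3 and 65.5 to 96.1 in KOSC-2.

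Dose was first compared by calls, counting regions called in both libraries of one dose and in neither of the other. In HSC-3, 0 member regions were called in both 8 Gy and neither 0 Gy library (gained; 0.680% of all regions) and 0 showed the reverse (lost; 0.957%). In KOSC-2, 2 regions (4.88% of 41) were gained, against 3.51% of all regions, and 0 were lost, against 0.870%. These are counts of a rule with no test, since 2 against 2 libraries cannot reach 0.05. They were near the shares of all regions. In HSC-3 the gained count was 4, 1 and 1 without 8 Gy replicate 1, 8 Gy replicate 2 and 0 Gy replicate 1, and the lost count was 4, 3 and 2 without 8 Gy replicate 2, 0 Gy replicate 1 and 0 Gy replicate 2. In KOSC-2 the lost count was 2, 1 and 2 without 8 Gy replicate 1, 0 Gy replicate 1 and 0 Gy replicate 2. With 1 library at a dose the rule is easier to meet, and the same sets gave 3.36% to 11.4% of all regions gained and 3.08% to 10.7% lost in HSC-3, and 3.56% to 8.49% lost in KOSC-2.

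The gained regions were GCLC region 2 and SLC7A11 region 1. GCLC region 2, at 53361584 to 53362000, was called at percentiles of 34.4 and 32.7 with 25 and 20 reads in the KOSC-2 8 Gy libraries, and in neither KOSC-2 0 Gy library. In HSC-3 it was called in 1 of 2 libraries at 8 Gy (48.9th percentile) and in both at 0 Gy (50.3 and 77.3), so it was open without irradiation there. SLC7A11 region 1, at 139079902 to 139080271, was called at percentiles of 19.3 and 15.5 with 13 reads in each KOSC-2 8 Gy library, and in no other library. With lists of equal length 0 regions were gained in KOSC-2. The count was 6 without replicate 1 of KOSC-2 at 8 Gy, 4 without replicate 2 of KOSC-2 at 8 Gy and 5 without replicate 2 of KOSC-2 at 0 Gy, against 8.20%, 14.1% and 12.2% of all regions.

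The difference in window coverage between 8 Gy and 0 Gy, averaged over the lines, was -16.5 to 9.63 bp per Mb, with exact two-sided permutation p of 0.167 to 1 (smallest possible 0.0556) and adjusted p of 1 in each of the 9 windows. In HSC-3 the doses did not overlap in 2 windows, both lower at 8 Gy. TXNRD1 had 128 and 132 bp per Mb at 8 Gy and 159 and 199 at 0 Gy, and AKR1B10 0 and 16.1 at 8 Gy and 16.4 and 28.5 at 0 Gy. At AKR1B10 the values 16.1 and 16.4 came from 1 peak each, of 362 and 364 bp. The 28.5 came from 1 peak of 310 bp at the 0.934th percentile with 7 reads, in a short list. In bases not scaled to the list that value was below the 362 bp at 8 Gy. Of the bins, 8.10% were lower at 8 Gy without overlap in HSC-3 and 6.94% higher, and of the bins with a peak in all 4 libraries of at least 1 line 11.3% and 9.90%. The count of 2 windows became 5, 4, 7 and 6 without 8 Gy replicates 1 and 2 and 0 Gy replicates 1 and 2 of HSC-3 in turn, since 1 library has no spread of its own.

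In KOSC-2 the doses did not overlap in 4 windows. NFE2L2 had 89.2 and 88.2 bp per Mb at 8 Gy and 125 and 109 at 0 Gy, and GCLM 71.4 and 79.7 at 8 Gy and 90.6 and 80.7 at 0 Gy. Both were lower at 8 Gy, as were 12.8% of bins. KEAP1 had 49.8 and 55.3 at 8 Gy and 40.7 and 44.0 at 0 Gy, and SLC7A11 105 and 112 at 8 Gy and 92.7 and 96.4 at 0 Gy. Both were higher at 8 Gy, as were 11.7% of bins. In bins with a peak in all 4 libraries of at least 1 line, 19.1% were lower and 12.6% higher at 8 Gy in KOSC-2. In HSC-3 the same 4 windows overlapped between doses. The 8 Gy minus 0 Gy difference had opposite signs in the lines for NFE2L2 (29.5 bp per Mb in HSC-3, -28.2 in KOSC-2) and SLC7A11 (-37.6 in HSC-3, 13.6 in KOSC-2), and the same sign for GCLM (-16.4 in HSC-3, -10.1 in KOSC-2) and KEAP1 (9.05 in HSC-3, 10.2 in KOSC-2). TXNRD1 and AKR1B10, apart in HSC-3 (-48.8 and -14.4), had 15.7 and -3.65 in KOSC-2. For NFE2L2 the average over the lines, 0.649, joins differences of opposite sign. Whether the lines differed in their dose difference was not tested. The KOSC-2 count became 5 and 6 without 8 Gy replicates 1 and 2 of that line, and 7 and 8 without 0 Gy replicates 1 and 2. With 1 library at a dose the rule is easier to meet, and no share of bins is given for these subsets in either line.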

How the data were processed

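ATAC-seq was measured in 8 libraries, 2 for each line and dose. Groups and replicate numbers come from the labels. Tools listed in the submitters' processing notes are MACS2 2.2.6, deepTools, SAMtools 1.9, Bowtie2 2.3.4.2 and FastQC 0.11.7, and hg19 is the only build there, with no settings. How duplicates, blacklisted regions and the Tn5 shift were handled was not given in the sources used here. For each peak the authors deposited a score (10 times the −log10 q), a fold enrichment ratio over the library's own background, the −log10 p and −log10 q and the summit offset. These are the authors' values and were used only within a list.

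Summit pileups were recovered from fold and p by search of 2 to 400 reads, and 100% of peaks matched within 0.0001. A library calls a region where any of its peaks falls in it. Lines were compared by exact permutation of 4 against 4 libraries (70 assignments), doses by exchange within lines (36 assignments), with Benjamini-Hochberg adjustment over 34886 windows and bins. In each window the region of highest mean percentile over the libraries that call it was described as the strongest. Every region called only in 1 line, gained or lost was described too. The windows, members and lists were chosen with earlier results of these data known. The planned check of cell type markers and other pathway genes was not run, since it needs gene positions of hg19. The replicate numbers share no stated culture or batch. Functions were tested on simulated lists. Computation used matplotlib 3.10.9, scipy 1.17.1, pandas 2.3.3 and numpy 2.4.6 in Python 3.11.15.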

Additional observations from a re-analysis of the deposited data

Results flagged for a closer look

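Of 18 sets of 4 library values (9 windows in each line), 1 held a value far from the rest, where chance gives about 1 in 20. The GCLC window covered 141 bp per Mb in replicate 2 of HSC-3 at 0 Gy, against 102 to 105 in the other HSC-3 libraries. This library has a short list (23490 peaks) and low enrichment (34.7), and without it the GCLC difference between HSC-3 and KOSC-2 was 27.2 bp per Mb. The part of list length in this value was not tested.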

How the results depend on the processing

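No line or dose difference of a window passed an adjusted p of 0.05 in any setting run. For the dose this could not happen, since the exact permutation p cannot go below 0.0556. Nor could it for the line under a replicate block or in the 2 subsets below that leave out 2 or 3 libraries. In these subsets the smallest exact permutation p of a window was 0.0667 and 0.1. In the main setting the smallest exact permutation p of the line, 0.0286, adjusted to 0.256, as 11.1% of bins shared it. No window could pass there either. Over the other settings the lowest adjusted exact permutation p of a window was 0.21. The sign of the difference HSC-3 minus KOSC-2 was the same in 118 repeats over the 9 windows and turned in 17. The 118 include 1 replicate block for each window, which keeps the difference and changes only p, so that its sign could not turn. It turned in bases not scaled to the list for GCLC (-62.2 bp), GCLM (-600 bp), NFE2L2 (-750 bp), NQO1 (-45.5 bp) and SLC7A11 (-626 bp). It turned with equal lists for GCLM (-29.6 bp per Mb) and SLC7A11 (-2.18), with a −log10 q of at least 5 for GCLM (-13.8), and in peaks per 10000 for NFE2L2 (-0.0636). Without the 2 shortest lists it turned for GCLM (-3.31), NFE2L2 (-9.82) and SLC7A11 (-0.745), and without the 3 libraries of lowest enrichment for NFE2L2 (-2.32) and SLC7A11 (-3.63), both alternatives chosen after seeing the data. Leaving out 1 library gave -0.966 to 10.8 for GCLM, -2.09 to 21.6 for NFE2L2 and -4.18 to 33.5 for SLC7A11. The share of bins is given for the main setting only, so the counts of windows that follow cannot be judged against a background. Windows wholly higher in HSC-3 numbered 0 in unscaled bases and 0 in peaks per 10000. Windows wholly lower in HSC-3 numbered 3 with a −log10 q of at least 5 (KEAP1, HMOX1, AKR1B10), 2 with equal lists (HMOX1, GCLM), 3 in unscaled bases (KEAP1, GCLM, AKR1B10), 0 in peaks per 10000, 3 without the 2 shortest lists, 3 without the 3 libraries of lowest enrichment and 1 to 2 when 1 library was left out (2 without the HSC-3 8 Gy replicate 1, the HSC-3 0 Gy replicate 2 or the KOSC-2 0 Gy replicate 1).

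Regions called only in KOSC-2 numbered 2 with a −log10 q of at least 5, 0 where 50% of the region had to be covered, 2 in at least 3 of 4 libraries, 3 without the 2 shortest lists, 4 without the 3 of lowest enrichment and 1 to 3 when 1 library was left out. Regions called only in HSC-3 numbered 1 in at least 3 of 4 libraries and 0 to 1 when 1 library was left out. The 1 came without replicate 1 of HSC-3 at 8 Gy, where 0.761% of all regions met the rule. They numbered 1 without the 2 shortest lists (3.09% of all regions) and 1 without the 3 of lowest enrichment (4.29%). Gained regions in HSC-3 numbered 1 with equal lists, 1 with 50% covered and 0 to 4 when 1 library was left out; lost regions there 0 to 4. Gained regions in KOSC-2 numbered 0 with equal lists and 2 to 6 when 1 library was left out. Lost regions in KOSC-2 numbered 1 with a −log10 q of at least 5, 1 with equal lists, 1 with 50% covered and 0 to 2 when 1 library was left out.

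The dose difference turned for AKR1B10 (0.984), and NFE2L2 (-36.1) with equal lists, for GCLM (7.20), HMOX1 (-3.91) and NFE2L2 (-0.0530) with a −log10 q of at least 5, for GCLC (78.8 bp), SLC7A11 (250 bp) and TXNRD1 (140 bp) in unscaled bases and for GCLC (0.0226) in peaks per 10000. Leaving out 1 library gave -18.2 to 1.19 for GCLC, -4.18 to 11.1 for HMOX1, -1.21 to 20.5 for KEAP1, -11.6 to 12.9 for NFE2L2, -19.1 to 5.13 for NQO1 and -40.3 to 16.3 for SLC7A11. For doses, too, the share of bins is given for the main setting only. Windows without overlap between doses in HSC-3 numbered 0 in unscaled bases and 2 to 7 when 1 library was left out, and in KOSC-2 2 in peaks per 10000 and 4 to 8. The cause of these changes was not tested.

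With a replicate block the exact permutation p of the line difference was 0.125 for GCLC (36.6) and HMOX1 (-33.4) and 0.125 to 0.875 over the 9 windows, and the dose p 0.250 to 1. With 16 assignments p cannot go below 0.125, so no call was possible under the block. Same-numbered libraries deviated with correlations of -0.271 to 0.151 over 34877 bins. Pairing the HSC-3 numbers crosswise (correlation -0.271 between its doses) gave 0 calls, with the same limit. The smallest called pileup of 5 to 9 reads limits what a missing call shows.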
